A study of Mus musculus with 8 samples.

Results

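The growth hormone, STAT5 and IGF1 axis was examined through 10 genes, chosen by name, of 55487 gene identifiers in the count table. They comprise the receptor Ghr, the transcription factors Stat5a and Stat5b, the feedback inhibitors Socs2 and Cish, the liver transcription factors Bcl6 and Cux2, the secreted factor Igf1, its plasma partner Igfals, and the binding protein Igfbp1. RNA sequencing was performed on 8 libraries labelled as the stromal vascular fraction of MC38 tumors, 4 from Bmal1+/+ mice and 4 from Bmal1-/- mice. Bmal1, a core transcription factor of the circadian clock encoded by Arntl, is absent from the whole body of a conventional Bmal1-/- mouse. MC38 is a mouse colorectal cancer line. The tumors grew under the skin from GFP-labelled MC38 cells, and the GFP-negative cells left after sorting were taken as the stromal fraction. All 8 libraries share the tumor line and the sort, and the age, the sex and the hour of collection of the mice are not given in the sources used here.

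The labels and the transcripts differed in several respects that touch each value below. Arntl had a mean of 1.55 ± 0.814 normalized CPM, counts scaled to the library total (SD, n = 4), in the Bmal1+/+ libraries. In the libraries labelled Bmal1-/- the mean was 32.6 ± 2.00. The RNA of Arntl was thus higher where the label states loss of the gene. A count per gene does not show which exons the reads cover. The cause was not tested. The Arntl values bear on both labels, so Bmal1+/+ and Bmal1-/- are used throughout as labels only. Xist, the RNA of the inactive X chromosome, had 942 ± 111 CPM in the Bmal1+/+ libraries and 0.343 ± 0.276 in those labelled Bmal1-/-, and the Y-linked Ddx3y, Eif2s3y, Kdm5d and Uty had 0 counts in each Bmal1+/+ library and were present in each library labelled Bmal1-/-. The sex transcripts and the genotype label therefore separated the 8 libraries in the same way, and their parts in any difference cannot be told apart. A list of 14 hepatocyte genes took 11.8 to 12.8% of the counts in the Bmal1+/+ libraries and 8.27 to 9.73% in the others, and Alb within it took 6.48 to 7.08% and 1.25 to 1.93%. Of the 14, Alb was lower, Apoa1, Fga and Fgb were higher and 10 were not called, with a median log2 fold change of 0.10. The fibroblast, endothelial and leukocyte lists each took at most 0.024% of the counts in any library. Lower in the libraries labelled Bmal1-/- were 5 of 8 tested fibroblast, 4 of 6 endothelial and 4 of 7 leukocyte genes, with 0 higher, where 16.2% of all tested genes were lower. The fibroblast genes Col1a2, Col3a1, Dcn, Lum and Thy1 were lower, while Col1a1 was at 4.18 and 4.15 CPM (adjusted p = 0.98, edgeR). Pecam1 of endothelium was lower by 0.46 on the log2 scale (adjusted p = 0.027) and the leukocyte gene Ptprc was at 21.8 ± 2.23 and 8.44 ± 4.06 CPM. The markers that define the labelled stromal cells thus took a far smaller share of the counts than the hepatocyte markers did. Library totals were 14783346 to 18449143 counts in the Bmal1+/+ group and 14054825 to 15624815 in the group labelled Bmal1-/-, and a count of 3, taken as the floor, corresponds to 0.167 to 0.213 CPM. The labels do not say whether the libraries came from separate mice, so the p-values measure the spread between these libraries.

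Growth hormone from the pituitary binds the growth hormone receptor, which activates the kinase JAK2, and JAK2 phosphorylates the transcription factors STAT5A and STAT5B. In hepatocytes STAT5B drives transcription of Igf1, Igfals, Socs2 and Cish, and the SOCS2 and CISH proteins in turn restrain the receptor. The pattern of growth hormone release differs between male and female mice and sets sex-biased gene expression in liver, where BCL6 is a male-biased repressor that binds many of the same sites as STAT5 and CUX2 is a factor found mainly in female liver. IGF1 circulates in a complex with IGFALS and an IGF binding protein and carries much of the growth signal to other tissues.

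The promoter sequences are shown because the STAT5 proteins and BCL6 share a recognition motif, TTCNNNGAA, so that the letters a member carries at its start can be set beside its level. The windows run from 250 bases before to 50 bases after each annotated start, on GRCm38.p6 from RefSeq, and 9 of the 10 members had at least 1 window. The motif was present in 5 of 16 member windows and in 2726 of all 32851 windows (8.3%). CACGTG, the E-box bound by BMAL1 with its partner CLOCK, was present in 1 of 16 member windows and in 2349 of all windows (7.15%). Both motifs read alike on either strand, apart from the N positions, and they did not overlap in the runs shown. The runs with a match belong to Cish, Bcl6 and Igfals and are printed 5′ to 3′ on the strand of the gene, with the matched letters in capitals.
Cish, plus strand, chr9:107296654-107296683, in an annotated exon: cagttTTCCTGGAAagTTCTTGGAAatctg
Bcl6, minus strand, upstream start, chr16:23988899-23988978, outside annotated exons: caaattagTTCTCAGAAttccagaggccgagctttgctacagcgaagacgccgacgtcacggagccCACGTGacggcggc
Bcl6, minus strand, inner start, chr16:23981355-23981459, outside annotated exons: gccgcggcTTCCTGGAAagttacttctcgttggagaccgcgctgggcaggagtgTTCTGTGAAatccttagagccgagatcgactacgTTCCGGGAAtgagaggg
Igfals, plus strand, upstream start, chr17:24877600-24877624, outside annotated exons: tctataatTTCTCAGAAaagaggct
Igfals, plus strand, inner start, chr17:24878165-24878189, outside annotated exons: gccaggtgTTCCTAGAAgaggccct
In Cish the matches began at base 1 and base 12 counted from the start site. In the upstream window of Bcl6 the match began at base -118 and the E-box at base -60, and the inner window held matches at bases -168, -122 and -88. The Igfals matches began at bases -236 and -58 of their windows. A match of letters is a description of the window and not a measured binding site.

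All 10 members passed the filter on low counts. Of these, 2 were lower (Cux2 and Igf1) and 2 were higher (Stat5b and Bcl6) in the libraries labelled Bmal1-/- at a Benjamini-Hochberg adjusted p below 0.05 in edgeR's quasi-likelihood test. The background was high, since 31.1% of 14353 tested genes passed the same threshold, 16.2% lower and 14.9% higher. The share of members called is therefore near that of the table as a whole, and what set the members apart from one another was the size and direction of each difference. The libraries of the groups did not overlap for 4 members, where 33.4% of all tested genes did not overlap. The median log2 fold change of the members was -0.20 and that of all tested genes was 0.02. By an absolute log2 fold change above 1 with unadjusted p below 0.05, a criterion met by 14.1% of tested genes, 2 members (Cux2 and Bcl6) passed. RNA was extracted from bulk cells, so fewer cells of a type and less RNA per cell cannot be told apart for any member.

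**Figure D1:**
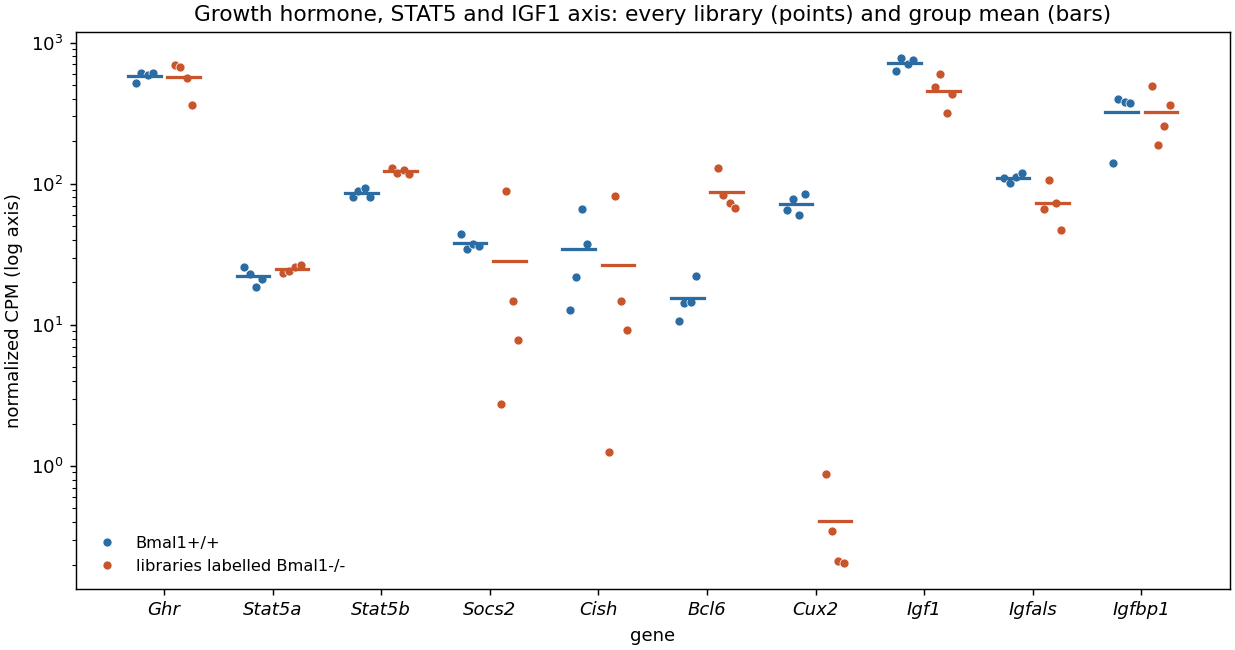
Normalized CPM of the 10 members in each library, on a log axis, with the Bmal1+/+ libraries and the libraries labelled Bmal1-/- side by side and the group mean as a short bar. Cux2 sits between 60.3 and 84.0 CPM in the Bmal1+/+ libraries and below 1 CPM in the others, Bcl6 moves the other way, and Socs2 and Cish spread over more than 10-fold within the libraries labelled Bmal1-/-.

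Ghr encodes the growth hormone receptor (ENSMUSG00000055737, chromosome 15, 3317760 to 3583492, minus strand, GRCm38). Its level was 515, 609.7, 594 and 607 CPM in Bmal1+/+ replicates 1 to 4, and 691, 676, 565 and 363 CPM in the libraries labelled Bmal1-/-. The groups overlapped, with the lowest value in the library labelled Bmal1-/- replicate 4 and the highest in replicate 1. The means were 581 ± 44.9 and 574 ± 152 CPM, a log2 fold change of -0.02 (SE 0.20, 95% interval -0.46 to 0.42, adjusted p = 0.95). The interval leaves room for a change of either sign. Jak2, the kinase attached to the receptor, was likewise close between groups at 20.4 ± 2.07 and 20.3 ± 0.661 CPM (log2 fold change -0.01, 95% interval -0.24 to 0.22, adjusted p = 0.94). Prlr, the prolactin receptor, which belongs to the same receptor family and is female-biased in mouse liver, fell from 441 ± 70.4 to 152 ± 23.4 CPM (log2 fold change -1.54, SE 0.16, adjusted p = 0.00012).

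The STAT5 genes are close paralogs that lie beside each other on chromosome 11, and reads from the parts they share could be split between them. Stat5b (ENSMUSG00000020919, 100780731 to 100850724, minus strand), the main STAT5 of liver, had 80.7, 88.3, 93.8 and 80.8 CPM in the Bmal1+/+ libraries and 129.8, 119, 126 and 117 CPM in those labelled Bmal1-/-. Every library labelled Bmal1-/- was above every Bmal1+/+ library, and the 4 values of each group lay close together. Stat5b rose from 85.9 ± 6.39 to 123 ± 5.91 CPM, a fold of 1.43 (log2 0.52, SE 0.09, 95% interval 0.31 to 0.73, adjusted p = 0.0028). Stat5a (ENSMUSG00000004043, 100859351 to 100885169, plus strand), which is more prominent in mammary gland, had 25.9, 22.9, 18.5 and 21.0 CPM in the Bmal1+/+ libraries and 23.5, 24.0, 25.7 and 26.5 CPM in the others. The groups overlapped, and the log2 fold change was 0.17 (SE 0.12, 95% interval -0.09 to 0.44, adjusted p = 0.30). Exons of Stat3 lie on the strand opposite Stat5a, and since strand use in the counting is not stated, reads of the pair may not have been kept apart. The difference between the paralogs was tested by their ratio within each library, as 1 of 3 ratios examined. The ratio of Stat5b to Stat5a ran from 3.11 to 5.05 in the Bmal1+/+ libraries and from 4.42 to 5.51 in the others, a log2 difference of 0.34 (exact two-sided permutation test, p = 0.11, adjusted p = 0.34, the smallest p possible being 0.029). A change of Stat5b relative to Stat5a was thus not shown.

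Socs2 and Cish encode feedback inhibitors whose transcription follows STAT5 activity. Socs2 (ENSMUSG00000020027, chromosome 10, 95385362 to 95417180, minus strand) had 44.1, 34.6, 37.6 and 36 CPM in Bmal1+/+ replicates 1 to 4, and 2.75, 88.3, 14.7 and 7.8 CPM in replicates 1 to 4 labelled Bmal1-/-. Replicate 2 of the latter was above all Bmal1+/+ libraries, and the other 3 were below all of them. The counts behind these values were 732, 540, 559 and 647 against 44, 1275, 207 and 115, far above the floor. The highest library was 1.27 times the lowest in the Bmal1+/+ group and 32.1 times in the group labelled Bmal1-/-. With such a spread the means of 38.1 ± 4.19 and 28.4 ± 40.2 CPM gave a log2 fold change of -0.42 (SE 0.80, 95% interval -2.22 to 1.37, adjusted p = 0.72), and limma-voom gave -1.58 (adjusted p = 0.14). Without the library labelled Bmal1-/- replicate 2, the log2 fold change was -2.18 (SE 0.44, adjusted p = 0.0082), so this library decides the call.

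Cish (ENSMUSG00000032578, chromosome 9, 107296026 to 107302784, plus strand), the gene whose start holds the STAT5-type matches at bases 1 and 12, had 12.7, 21.9, 66.6 and 37.4 CPM in the Bmal1+/+ libraries and 1.25, 81.6, 14.8 and 9.23 CPM in those labelled Bmal1-/-. The groups overlapped, and the order within the libraries labelled Bmal1-/- was the same as for Socs2, with replicate 1 lowest, then 4, then 3, and replicate 2 highest. The counts were 211, 342, 992 and 671 against 20, 1178, 208 and 136. The range within a group was 5.25-fold among the Bmal1+/+ libraries, where Socs2 varied little, and 65.3-fold among the others. The log2 fold change was -0.38 (SE 0.92, 95% interval -2.44 to 1.69, adjusted p = 0.79), limma-voom gave -1.45 (adjusted p = 0.30), and without replicate 2 labelled Bmal1-/- it was -2.04 (adjusted p = 0.078). The noncoding Gm17040 and Gm17041 overlap exons of Cish on the other strand, and neither had more than 10 counts in any library. The ratio of Socs2 to Cish ran from 0.564 to 3.46 in the Bmal1+/+ libraries and from 0.846 to 2.17 in the others (log2 difference -0.15, exact two-sided permutation test, p = 0.89, adjusted p = 0.91).

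The spread of the feedback inhibitors was placed among all genes by the SD of log2(CPM + 0.1) within the libraries labelled Bmal1-/-, for 8159 genes whose mean reached 10 CPM. The SD of Socs2 was 2.08, reached by 22 of these genes, itself included (0.27%), against 0.15 in the Bmal1+/+ libraries. For Cish the SD was 2.43, reached by 13 genes (0.159%), against 1.02 in the Bmal1+/+ libraries. The median SD over all genes was 0.19 and 0.16 in the respective groups, so the libraries as a whole did not vary in this way. Cux2 had an SD of 0.78 at counts of 3 to 14, Igfbp1 0.60, Igfals 0.48, Ghr 0.43, Bcl6 0.42 and Igf1 0.39. The STAT5 genes were the steadiest members, with SDs of 0.08 for Stat5a and 0.07 for Stat5b. The RNA of Stat5a and Stat5b thus varied little across libraries in which the RNA of Socs2 and Cish ranged over more than 30-fold. The STAT5 proteins and their phosphorylation were not measured in these libraries.

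The 3 genes with the profile nearest to that of Socs2 across the 8 libraries, among 13444 genes whose mean reached 1 CPM, were Gm9847, Cish and Onecut1, with root mean square differences of 0.36, 0.77 and 0.77 in centred log2 CPM. Gm9847 was low, between 0.0624 and 4.99 CPM. Onecut1, the hepatocyte factor HNF6 and itself a growth hormone-responsive gene in liver, had 94.9, 51.1, 45.1 and 37.9 CPM in the Bmal1+/+ libraries and 4.87, 69.7, 5.48 and 15.2 CPM in those labelled Bmal1-/-. As for Socs2 and Cish, replicate 2 was the highest of the latter and replicate 1 the lowest. Onecut1 was picked by its nearness to the Socs2 profile, so this likeness and its fit without replicate 2 are a description. The log2 fold change of Onecut1 was -1.27 (SE 0.75, adjusted p = 0.23) with all libraries and -2.74 (adjusted p = 0.0043) without that replicate. The totals of replicates 1 to 4 labelled Bmal1-/- were 15624815, 14054989, 14054825 and 15060098 counts, so the library with the lowest Socs2 and Cish was the deepest. Replicates 2 and 3 had nearly equal totals, with Socs2 at 88.3 and 14.7 CPM and Cish at 81.6 and 14.8 CPM. The part of depth in these values was not tested.

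**Figure D2:**
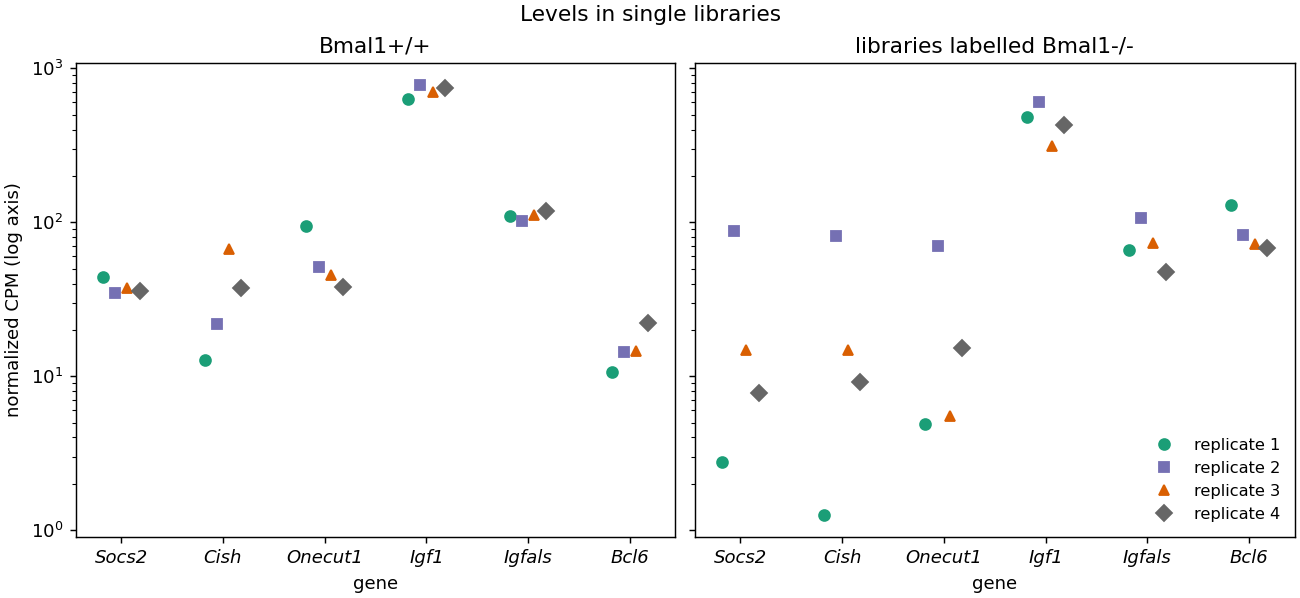
Normalized CPM on a log axis of Socs2, Cish, Onecut1, Igf1, Igfals and Bcl6 in each single library, with a symbol for each replicate number, for the Bmal1+/+ libraries on the left and the libraries labelled Bmal1-/- on the right. Socs2 spans 34.6 to 44.1 CPM on the left and 2.75 to 88.3 on the right, where replicate 2 is the highest library for Socs2, Cish and Onecut1.

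Bcl6 encodes a transcriptional repressor that opposes STAT5 at many liver genes (ENSMUSG00000022508, chromosome 16, 23965052 to 23988852, minus strand). Its level was 10.7, 14.3, 14.6 and 22.2 CPM in the Bmal1+/+ libraries and 129, 83.1, 72.6 and 67.6 CPM in those labelled Bmal1-/-. The lowest library labelled Bmal1-/- was above the highest Bmal1+/+ library. Bcl6 rose from 15.4 ± 4.86 to 88.0 ± 27.9 CPM, a fold of 5.7 (log2 2.51, SE 0.27, 95% interval 1.92 to 3.11, adjusted p = 0.00014). The windows at both of its starts hold TTCNNNGAA, 4 matches in all, and the upstream window also holds the E-box. Bcl6 was higher in all 4 libraries with high Arntl counts, which are the 4 labelled Bmal1-/- and also the 4 with Y-linked counts. A link between Bcl6 and Arntl was not tested. Gm37419 overlaps an exon on the other strand and had at most 2 counts in any library.

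Cux2 encodes a homeobox factor of female mouse liver (ENSMUSG00000042589, chromosome 5, 121856366 to 122050102, minus strand). Cux2 had 64.9, 78.3, 60.3 and 84.0 CPM in the Bmal1+/+ libraries and 0.874, 0.346, 0.213 and 0.204 CPM in those labelled Bmal1-/-. The counts were 1079, 1223, 898 and 1508 against 14, 5, 3 and 3, so replicates 3 and 4 labelled Bmal1-/- sat at the floor of 3 counts. Every library labelled Bmal1-/- lay far below every Bmal1+/+ library. Summed over libraries the counts were 4708 and 25, a depth-scaled ratio of 171 (95% exact binomial interval 116 to 265, for counting error only). The fitted log2 fold change was -7.39 (SE 0.33, 95% interval -8.12 to -6.67, adjusted p = 8.5e-07) and rests on few counts in the lower group. The genes with the nearest profile to Cux2 were Cyp2b9, a female-biased cytochrome P450 of liver, at a root mean square difference of 0.48, then Eci3 at 0.71 and Slc22a27 at 0.73. Cyp2b9 ran from 502 to 622 CPM in the Bmal1+/+ libraries and from 1.36 to 5.43 in those labelled Bmal1-/-.

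**Figure D3:**
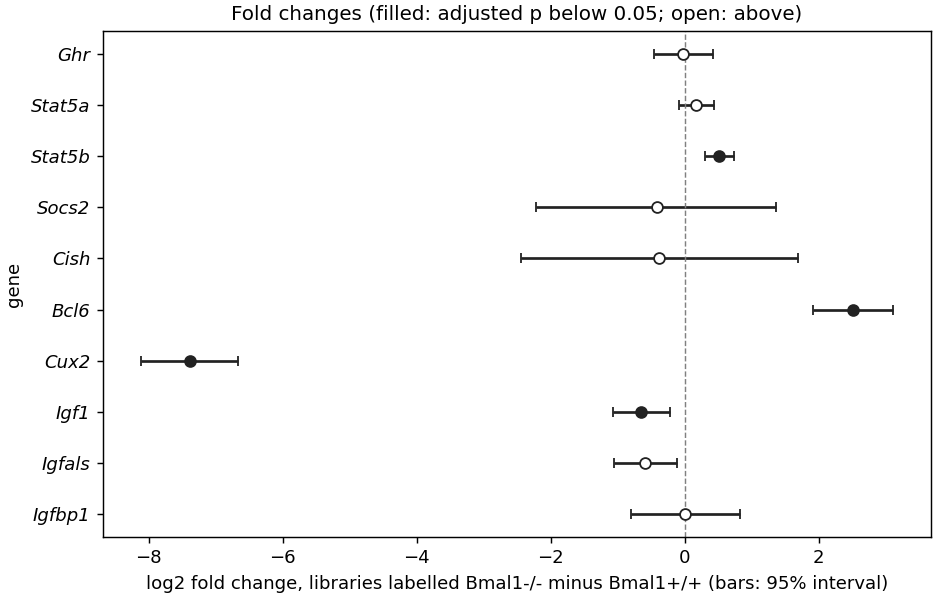
Log2 fold change of each member, libraries labelled Bmal1-/- over Bmal1+/+, with 95% intervals from edgeR. The intervals of Cux2 and Igf1 lie below 0 and those of Stat5b and Bcl6 above it, Igfals lies below 0 with an adjusted p of 0.056, and the widest intervals are those of Socs2 and Cish.

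Igf1 encodes insulin-like growth factor 1, the main secreted product of growth hormone action on liver (ENSMUSG00000020053, chromosome 10, 87858265 to 87937042, plus strand). The level was 629, 784, 703 and 748 CPM in the Bmal1+/+ libraries and 484, 603, 315 and 429 CPM in those labelled Bmal1-/-. The groups did not overlap, although replicate 2 labelled Bmal1-/-, again the highest of its group at 603 CPM, was close to the lowest Bmal1+/+ library at 629 CPM. Igf1 fell from 716 ± 66.7 to 458 ± 119.6 CPM, to 0.639 of the Bmal1+/+ level (log2 fold change -0.65, SE 0.19, 95% interval -1.07 to -0.22, adjusted p = 0.027). The call is close to the threshold, and the adjusted p was 0.069 without Bmal1+/+ replicate 2, 0.053 without replicate 3, 0.057 without replicate 4 and 0.0503 without replicate 1 labelled Bmal1-/-. The genes with the nearest profile to Igf1 were Hdac7, Zfp971 and Rbm14, at root mean square differences of 0.11, 0.13 and 0.13.

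Igfals encodes the acid-labile subunit that holds IGF1 in the circulating complex (ENSMUSG00000046070, chromosome 17, 24865997 to 24882010, plus strand). Igfals had 110, 102, 111 and 119 CPM in the Bmal1+/+ libraries and 65.9, 107, 73.0 and 47.4 CPM in those labelled Bmal1-/-. Only replicate 2 labelled Bmal1-/- reached the range of the Bmal1+/+ libraries. The means were 110.3 ± 7.04 and 73.3 ± 24.9 CPM (log2 fold change -0.59, SE 0.21, 95% interval -1.05 to -0.12, adjusted p = 0.056), and without that replicate the log2 fold change was -0.82 (adjusted p = 0.0066). DESeq2 gave -0.60 (adjusted p = 0.027). With any other single library left out Igfals stayed uncalled in edgeR, with adjusted p up to 0.122. Without replicate 4 labelled Bmal1-/-, its lowest library, the log2 fold change was -0.43 (adjusted p = 0.078). The ratio of Igfals to Igf1 ran from 0.13 to 0.175 in the Bmal1+/+ libraries and from 0.111 to 0.232 in the others (log2 difference 0.03, exact two-sided permutation test, p = 0.91, adjusted p = 0.91), so a difference between these paired products was not detected.

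Igfbp1 encodes a hepatic IGF binding protein that insulin represses and fasting induces (ENSMUSG00000020429, chromosome 11, 7197782 to 7202546, plus strand). Igfbp1 had 139.8, 399.9, 379 and 371 CPM in the Bmal1+/+ libraries and 492, 187, 256 and 362 CPM in those labelled Bmal1-/-. Here the groups overlapped throughout, Bmal1+/+ replicate 1 was the lowest of all, and replicate 2 labelled Bmal1-/- was the lowest of its group where it was the highest for Socs2, Cish, Igf1 and Igfals. The log2 fold change was 0.01 (SE 0.36, 95% interval -0.80 to 0.82, adjusted p = 0.99).

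Scaled by gene length, the order of levels is given in the authors' FPKM, which scales fragments by gene length and library total. In the Bmal1+/+ libraries Igfbp1 was the highest member at 208 ± 77.7 FPKM, followed by Igf1 at 53.8 ± 4.08 and Ghr at 47.6 ± 3.12, whose libraries overlapped. Stat5b at 14.5 ± 1.19 and Igfals at 12.9 ± 0.871 came next and overlapped each other. Cux2 at 5.12 ± 0.692, Cish at 3.17 ± 2.20, Socs2 at 2.75 ± 0.35, Stat5a at 2.19 ± 0.316 and Bcl6 at 2.04 ± 0.617 formed a lower set in which each neighbour overlapped the next. In the libraries labelled Bmal1-/- Igfbp1 was again the highest at 214 ± 89.0 FPKM, and Ghr at 48.1 ± 13.6 and Igf1 at 35.2 ± 9.75 overlapped. Bcl6 at 11.9 ± 3.99 moved from the last place to overlap Igfals at 8.77 ± 3.13, and Cux2 moved to the last place at 0.0301 ± 0.0237 FPKM. Stat5a, Cish and Socs2, at 2.51 ± 0.0849, 2.51 ± 3.51 and 2.12 ± 3.03, lay between and overlapped.

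The other genes of growth hormone receptor signalling form a list of 26, of which 24 were tested. Of these, 7 were lower and 3 higher in the libraries labelled Bmal1-/-, the groups did not overlap for 8, beside 33.4% of all genes, and the median log2 fold change was -0.08 beside 0.02 for all genes. The share of 24 called is again to be read against 31.1% of all genes. Besides Prlr, the lower genes with the largest changes were Pik3r1, the regulatory subunit of PI3-kinase, at mean levels of 154 and 64.1 CPM (log2 fold change -1.27, SE 0.14, adjusted p = 0.00018) and the adaptor Gab1 at 28.4 and 13.8 CPM (-1.05, SE 0.14, adjusted p = 0.00051). The higher ones were the kinase Src, at 2.14 and 15.4 CPM (2.83, SE 0.30, adjusted p = 0.00013), the insulin receptor substrate Irs2, at 51.2 and 111 CPM (1.12, SE 0.27, adjusted p = 0.011), and Socs7, at 16.5 and 23.7 CPM (0.53, SE 0.13, adjusted p = 0.012). The lower genes also included Sh2b3, Akt1 and Mapk3, with log2 fold changes from -0.51 to -0.35. Gh itself had 0 counts in all 8 libraries. Socs3, an inhibitor induced by interleukin-6 through STAT3, had 9.27, 4.8, 17.9 and 6.35 CPM in the Bmal1+/+ libraries and 5.06, 15.6, 11.2 and 26.2 CPM in the others (log2 fold change 0.60, SE 0.50, adjusted p = 0.39). The highest Socs3 value was in replicate 4 labelled Bmal1-/-, where Ghr was lowest and where a list of 10 acute-phase genes made up 5.28% of all counts, beside 0.426 to 0.698% elsewhere. The part of the acute-phase state of that library in the Ghr value was not tested. Without that library the log2 fold change of Ghr was 0.15 (adjusted p = 0.36).

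The insulin-like growth factor system was followed through 14 further genes, of which 9 were tested, 4 were lower and 0 were higher in edgeR, where 16.2% of all genes were lower and 14.9% higher. The median log2 fold change was -0.05. Igfbp3, the main carrier of IGF1 in blood, which in liver is made largely by nonparenchymal cells, fell from 29.5 ± 6.92 to 12.3 ± 2.88 CPM (-1.27, SE 0.20, adjusted p = 0.0014). Igfbp5 fell from 19.7 to 4.47 CPM (-2.14, SE 0.39, adjusted p = 0.0030), the receptor Igf1r from 4.73 to 2.74 CPM (-0.78, SE 0.19, adjusted p = 0.012), and Igfbp7 by 0.30 on the log2 scale (adjusted p = 0.041). Fibroblast, endothelial and leukocyte markers were lower in the same libraries (5 of 8, 4 of 6 and 4 of 7 tested genes, beside 16.2% of all genes), and the part of this in the Igfbp values was not tested. Igfbp2 had 280.1, 354, 436 and 246 CPM in the Bmal1+/+ libraries and 732, 605, 1442 and 178 CPM in those labelled Bmal1-/-. In 3 of the latter it was above all Bmal1+/+ libraries and in replicate 4 below all of them. The log2 fold change was 1.17 (SE 0.49, adjusted p = 0.099), and 1.5 (adjusted p = 0.0054) without replicate 4. With each library left out in turn it ran from 0.6 to 1.5, with adjusted p from 0.0054 to 0.32. With Igfbp2 counted in the setting without replicate 4 labelled Bmal1-/-, 1 gene of the list was higher. Igfbp4, which binds IGF1 in many tissues, was at 2113 and 2043 CPM (adjusted p = 0.81).

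Genes that growth hormone patterning keeps sex-biased in mouse liver were followed in a further pair of lists. These lists were drawn up with results of these data known, so their direction and size are a description. Of all tested genes, 16.2% were lower and 14.9% higher in the libraries labelled Bmal1-/-, with a median log2 fold change of 0.02. Of 22 female-biased genes, which include Prlr, 21 were lower and 1 higher in the libraries labelled Bmal1-/-, with a median log2 fold change of -7.80. Of 21 male-biased genes, 21 were higher and 0 lower, with a median of 4.19, and the medians were the same with genes at or under the floor set to their bound. The lower genes with the largest changes were Sult2a1, a sulfotransferase, and the cytochromes Cyp3a16 and Cyp3a44, which belong to families of near-identical copies. Sult2a1 had 8341, 949, 297 and 7554 counts in Bmal1+/+ replicates 1 to 4, a 25.2-fold range in CPM, and with each library left out its fitted log2 fold change ran from -14.94 to -12.71. It had 17141 summed counts in the Bmal1+/+ libraries and 1 in the others (ratio 15605, 95% counting interval 2800.5 to 616413), Cyp3a16 had 25325 and 4, and Cyp3a44 had 18239 and 4. The higher ones were Cyp4a12b, with 2 and 4115 summed counts (ratio 2260, 95% counting interval 625 to 18668), its near copy Cyp4a12a, with 9 and 4268, and the major urinary protein gene Mup7, also 1 of a family of near copies, at 15.4 ± 7.54 and 5764 ± 3091 CPM (log2 fold change 8.55, SE 0.64, adjusted p = 1.8e-05). Ntrk2 was the exception among the female-biased genes, at 28.1 ± 9.81 and 129.8 ± 41.1 CPM (2.21, SE 0.31, adjusted p = 0.00076). Cux2 and Bcl6, the members known as sex-biased in liver, lay in the same directions as these lists, Cux2 with the female-biased and Bcl6 with the male-biased genes. These directions coincide with the low Xist counts and the Y-linked counts in the libraries labelled Bmal1-/-, and genotype and sex cannot be told apart here.

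**Figure D4:**
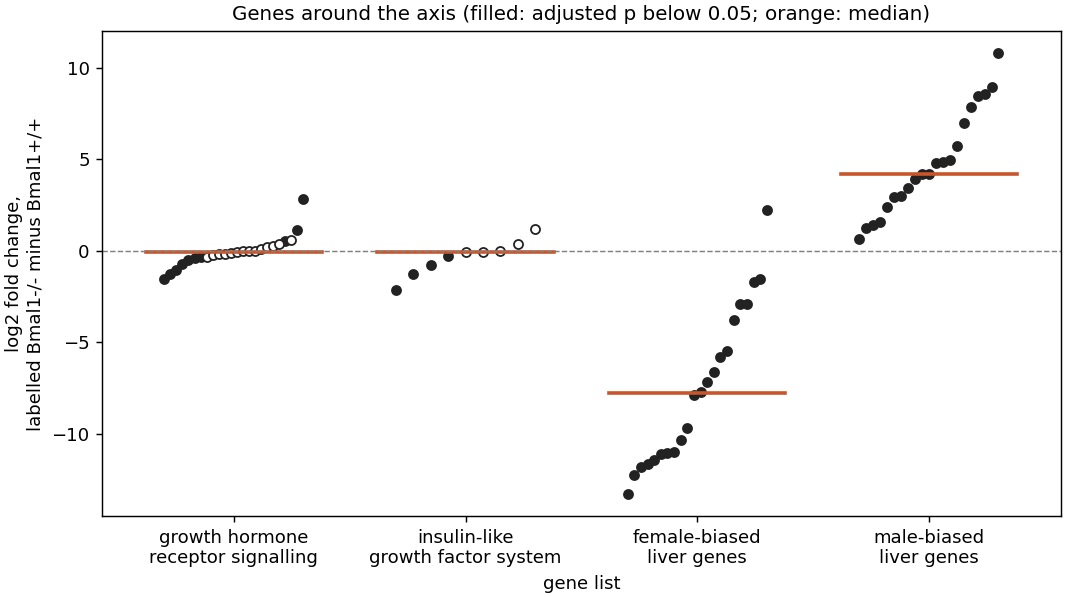
Log2 fold changes of the tested genes of the 4 lists, each point a gene, filled at adjusted p below 0.05, with the median as a line, libraries labelled Bmal1-/- over Bmal1+/+. The female-biased genes lie below 0 except Ntrk2, the male-biased genes lie above 0, and the growth hormone signalling and insulin-like growth factor lists have medians of -0.08 and -0.05.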

How the data were processed

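RNA was sequenced from the labelled stromal vascular fraction of MC38 tumors, with 4 libraries of each genotype label. Replicate 4 labelled Bmal1-/- was identified from its description, since its title is numbered 6. Alignment by the authors was with HISAT2 to GRCm38 and counting per gene with StringTie, and the deposited counts are raw whole numbers. The submitters' processing notes instead name CASAVA 1.8 and TopHat2 2.0.6. The authors also deposited FPKM, which for 100% of 11054 genes checked came within 1% of the count scaled by depth and a constant gene length, and which holds no TMM factor. FPKM was used only to order genes by level. Strand use in the counting is not stated.

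GENCODE on GRCm38, in a release older than that of the study, gave symbols and coordinates to 99.5% of 55487 identifiers. Normalized CPM, log2 fold changes and p-values came from edgeR 4.0.16 under R 4.3.3. Genes were filtered by filterByExpr, counts were scaled by TMM, the prior count was 0.125, and the quasi-likelihood test was run on all 14353 genes that passed the filter, with Benjamini-Hochberg adjustment over all of them. Each SE is the size of the log2 fold change over the root of its F statistic. Ratios of members were compared by exact permutation tests in SciPy 1.17.1 on log2 ratios with 0.5 added to each count, adjusted over 3 ratios. Plots used matplotlib 3.10.9 (Python 3.11.15). The fit was tested on simulated counts in which 200 genes were changed by 2 log2 units. It recovered 94.5% of these, and 5.03% of its calls were false. Changes as small as those of Stat5b, Igf1 and Igfals were not simulated, nor was a table with as large a share of changed genes. No libraries were duplicates, since within a label the lowest chi-square per degree of freedom between libraries was 19.7.

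The members and lists were chosen with earlier results of these data known. Named genes are the 10 members, from each of 4 lists up to 3 lower and 3 higher genes with the largest change at a mean of at least 1 CPM, 13 genes always reported, and the 3 nearest profiles for Cux2, Socs2 and Igf1. Others were named after their values were seen, and the result of 1 listed gene is not reported here. Alternatives were DESeq2 1.42.0, limma-voom (limma 3.58.1), other normalizations, filters and prior counts, the replicate number as a block, and leaving out each library.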

Additional observations from a re-analysis of the deposited data

Results flagged for a closer look

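A library was listed where its gap to the nearest of the other 3 libraries of its group exceeded Dixon's critical value of 0.829 of the group's range. This held in 11 of 60 groups of values examined. The critical value is set for about 1 in 20 groups of independent normal values. The groups examined overlap, as Saa1 lies in the acute-phase list, and Onecut1 was picked by its profile. The count therefore cannot be compared with chance. In the library labelled Bmal1-/- replicate 2, Socs2 was 88.3 CPM against 2.75 to 14.7 in the other 3, Cish was 81.6 against 1.25 to 14.8, and Onecut1 was 69.7 against 4.87 to 15.2. In Bmal1+/+ replicate 1, Ghr was 515 CPM against 594 to 609.7 and Igfbp1 was 139.8 against 371 to 399.9. Stat3 was 179 CPM in Bmal1+/+ replicate 3 against 102 to 110.2, and 255 in the library labelled Bmal1-/- replicate 4 against 112 to 120.1. That replicate 4 also held Saa1, an acute-phase protein of liver, at 7751 CPM against 10.9 to 17.7, the acute-phase list at 5.28% of counts against 0.509 to 0.698%, and the hepatocyte list at 9.73% against 8.27 to 8.42%. The epithelial list took 0.0181% of the counts in Bmal1+/+ replicate 4 and 0.0222 to 0.023% in the other 3. Of the members, Stat5a, Stat5b, Bcl6, Cux2, Igf1 and Igfals had no such library in either group.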

How the results depend on the processing

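Bcl6 and Stat5b kept their direction under each alternative run, and their call under each that uses adjusted p, as did Cux2 wherever it was tested. With at least 10 counts in every library Cux2 was not tested, and the 2 lower members were Igf1 and Igfals. With each library left out in turn the log2 fold change ran from -8.09 to -7.17 for Cux2. It ran from 2.27 to 2.73 for Bcl6 and from 0.48 to 0.56 for Stat5b. Lower members numbered 1 to 4 against 2 with all libraries: 1 without Bmal1+/+ replicate 2, 3 or 4 or the library labelled Bmal1-/- replicate 1, where Igf1 lost its call, and 4 without the library labelled Bmal1-/- replicate 2, where Socs2 and Igfals gained one. Igfals was also called with limma-voom (-0.65, adjusted p = 0.04) and with that filter (-0.61, adjusted p = 0.049). By the fold and unadjusted p criterion 1 member was lower and 1 higher. The lower genes of receptor signalling numbered 4 to 9 with libraries left out (7 with all), with 4 without Bmal1+/+ replicate 1 or the library labelled Bmal1-/- replicate 2, and higher genes of the insulin-like growth factor list 0 to 1. That filter also left 8 female-biased genes lower, because it removes genes that fell. Uncalled values changed sign: Ghr was 0.02 and Jak2 0.01 with library size only, Igfbp1 was -0.01 with that filter and with the block and 0.00 with DESeq2, RLE and upper-quartile scaling, and with libraries left out Ghr ran from -0.12 to 0.15, Cish from -2.04 to 0.15, Igfbp1 from -0.26 to 0.20, Jak2 from -0.05 to 0.05, the Igfals to Igf1 ratio from -0.15 to 0.20 and the Socs2 to Cish ratio from -0.55 to 0.32. Over all tested genes the replicate numbers showed little sign of pairing the libraries. Deviations of libraries with the same number correlated at -0.06, 0.06, 0.04 and 0.04, and only replicate 4 matched its own number best. These correlations could miss a pairing that touches few genes. With the replicate number as a block, 2064 genes were lower and 1809 higher, and each member kept its call. Socs2 and Cish stayed uncalled but were lower by more, at -1.52 and -1.44 with the block and -1.58 and -1.45 with limma-voom, which also called Onecut1 (-2.06, adjusted p = 0.044). DESeq2 gave no adjusted p for Socs2 or Onecut1. The causes of these shifts were not tested. Depth limits Cux2 in the libraries labelled Bmal1-/-, where 2 libraries were at the floor.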
